A study of Mus musculus with 82 samples.

Results

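In these cells, 10924 called Eomes peaks appeared in all 3 peak lists of Eomes constructs and overlapped no Brachyury peak. They were chosen by the authors' peak calls, as the peaks of the EoGFP list, on assembled chromosomes and with repeated entries dropped, that shared at least 1 bp with an EoV5 peak and with an EoVP16 peak and shared no base with a BraGFP peak. They made up 36.3% of the 30129 EoGFP peaks and are called 3-list sites below. The closest comparison is with the 6049 EoGFP peaks (20.1%) that met the same conditions but did overlap a BraGFP peak, called 4-list sites. The members were thus selected on presence in the lists, and on the heights that put a peak into a list, so peak heights are given below as a description only.

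Of the 82 mouse samples in the series, 12 are ChIP-seq libraries, and the RNA-seq and ATAC-seq libraries were not used here. All ChIP-seq cells behind the 4 lists were dKO cells, a line derived from A2lox.Cre mouse embryonic stem cells in which both Eomes and Brachyury are knocked out, so that the endogenous factors were missing from each group. They were grown as embryoid bodies, given activin A at 30 ng/ml and doxycycline from day 2, and taken on day 5. EoGFP is Eomes with a GFP tag (2 libraries with anti-GFP antibody, 1 joined list), EoV5 carries a V5 tag on Eomes, and EoVP16 joins Eomes to the activation domain VP16 (1 library each, with anti-V5 antibody). BraGFP is Brachyury with a GFP tag (2 libraries with anti-GFP antibody, 1 joined list). Each protein was made from a doxycycline-induced transgene, and how its level compared with that of the endogenous protein is not given in the sources used here.

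Both Eomes and Brachyury, whose gene is T, belong to the T-box family of transcription factors, which bind DNA through a shared domain that recognises variants of the sequence AGGTGTGA. Both are made in the primitive streak of the gastrulating embryo. Eomes is needed for definitive endoderm and for anterior, cardiac mesoderm, while Brachyury is needed for posterior mesoderm and the notochord. VP16 is a strong viral activation domain, and fusing it to a DNA-binding protein turns targets of that protein on.

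There is 1 peak list per construct and therefore no replicate value for any site. Intervals are 95% intervals (Wilson for a share, Newcombe for a difference of shares, exact Poisson for a pileup) and cover counting error only. Sites are not replicates of a condition, and 472 of the 3-list sites had the same tallest EoV5 peak as another such site, as had 372 for EoVP16. Pileup is the number of fragments stacked at a peak's summit. A site is given the pileup of its tallest overlapping peak, whose summit can lie outside the site. The lists were kept above different pileup minimums, 120 for EoGFP, 60 for EoV5, 36 for EoVP16 and 40 for BraGFP, and read depth is unknown from these files. A place without a BraGFP peak is therefore a place where none passed that minimum, not one shown to lack Brachyury.

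Sequence could be searched only in promoter windows, which cover a part of the sites. Over all 2521 windows overlapped by a 3-list site, 1.27% held the T-box 8-mer, against 1.44% of windows overlapped by no EoGFP peak. The smaller set of windows that hold an EoV5 summit, described first, was picked out after the data had been seen. Of 788 windows around transcription starts that held the EoV5 summit of a 3-list site, 24 held the T-box 8-mer AGGTGTGA or its reverse complement TCACACCT. The windows below are those 7 with an EoV5 pileup over 200 fragments, with Atf4, which encodes a transcription factor of the integrated stress response, added as a well-known coding gene. Each is a stretch of 120 bases cut from the RefSeq promoter window, GRCm38.p6, printed 5′ to 3′ on the strand of the transcript, and the capitals mark the 8-mer. The genes were chosen after their values were seen.
D230030E09Rik, chr12:118530324-118530443, minus strand: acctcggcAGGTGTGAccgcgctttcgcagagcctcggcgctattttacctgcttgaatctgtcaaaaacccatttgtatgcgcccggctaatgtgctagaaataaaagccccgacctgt
Duoxa2, chr2:122298663-122298782, plus strand: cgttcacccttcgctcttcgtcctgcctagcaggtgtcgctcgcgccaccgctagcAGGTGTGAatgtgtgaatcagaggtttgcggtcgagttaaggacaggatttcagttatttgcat
Gm36154, chr2:128466479-128466598, minus strand: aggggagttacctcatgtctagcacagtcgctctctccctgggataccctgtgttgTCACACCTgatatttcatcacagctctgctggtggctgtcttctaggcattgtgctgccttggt
1810019D21Rik, chr8:106135263-106135382, plus strand: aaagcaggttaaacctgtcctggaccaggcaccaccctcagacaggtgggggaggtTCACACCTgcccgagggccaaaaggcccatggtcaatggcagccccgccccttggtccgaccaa
Gm33078, chr11:57912039-57912158, plus strand: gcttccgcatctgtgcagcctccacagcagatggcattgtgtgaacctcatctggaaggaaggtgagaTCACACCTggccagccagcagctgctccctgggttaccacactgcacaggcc
Gm33970, chr1:80038542-80038661, minus strand: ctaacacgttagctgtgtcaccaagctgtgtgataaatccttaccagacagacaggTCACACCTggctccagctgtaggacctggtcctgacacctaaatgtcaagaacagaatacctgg
Gm43837, chr5:64383250-64383369, plus strand: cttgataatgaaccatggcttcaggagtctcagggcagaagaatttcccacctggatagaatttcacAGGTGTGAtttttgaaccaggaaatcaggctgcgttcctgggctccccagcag
Atf4, chr15:80254934-80255053, plus strand: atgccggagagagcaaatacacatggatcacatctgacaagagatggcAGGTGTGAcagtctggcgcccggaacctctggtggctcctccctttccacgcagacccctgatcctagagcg

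D230030E09Rik had an EoV5 pileup of 488 fragments (446 to 533) and an EoVP16 pileup of 100 (81.4 to 122). Duoxa2, a maturation factor of dual oxidase, had 421 (382 to 463) and 173 (148 to 201). At Duoxa2 the centre of the 8-mer lay 9.50 bp from the EoV5 summit, and at D230030E09Rik it lay 58.5 bp away. At Atf4 it lay 1.50 bp from a summit of 194 fragments (168 to 223). The nearest BraGFP peak lay 215 kb from the site at D230030E09Rik, 76.2 kb from that at Duoxa2 and 7.37 kb from that at Atf4.

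The share of windows with the 8-mer went up with the height of the EoV5 peak. Windows are 300 bases long, 250 before to 50 after a transcription start, and 29164 of them that do not overlap each other were searched on both strands. The 8-mer was in 1.34% of all of them (percent of windows called). Among windows with the EoV5 summit of a 3-list site, it was in 5 of 365 with a pileup up to 80 (1.37%, 0.587 to 3.17), in 6 of 289 above 80 and up to 120 (2.08%, 0.955 to 4.45), in 6 of 87 above 120 and up to 200 (6.90%, 3.20 to 14.2) and in 7 of 47 above 200 (14.9%, 7.41 to 27.7). The difference between the tallest and the lowest of these groups was 13.5 percentage points (5.82 to 26.3). The lowest windows were thus near the share of all windows, and the tallest stood above it. The sites were selected in part on EoV5 height, so this order is given as a description only.

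The 4-list sites showed the same order of shares. The 8-mer was in 5 of 40 windows above 200 (12.5%, 5.46 to 26.1) and in 1 of 314 up to 80 (0.318%, 0.0562 to 1.78), a difference of 12.2 points (4.99 to 25.8). Guanine and cytosine content moved with height too. Its median was 52.0% in the tallest windows of 3-list sites and 63.3% in the lowest, and the SP/KLF box GGGCGGG, bound by factors of many housekeeping promoters, was in 14.9% and 54.0% of them. In 4-list windows the medians were 57.5% and 63.3%, and the box was in 47.5% and 51.9%. The part of base composition in the order of the 8-mer shares was not tested. The height groups were set after the data had been seen. By EoVP16 pileup there was no such steady order: the 8-mer was in 4.55% of windows with a pileup up to 50 (1.78 to 11.1), 2.95% above 50 and up to 65 (1.44 to 5.97), 0.766% above 65 and up to 85 (0.210 to 2.75) and 5.45% above 85 (3.07 to 9.49).

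**Figure D1:**
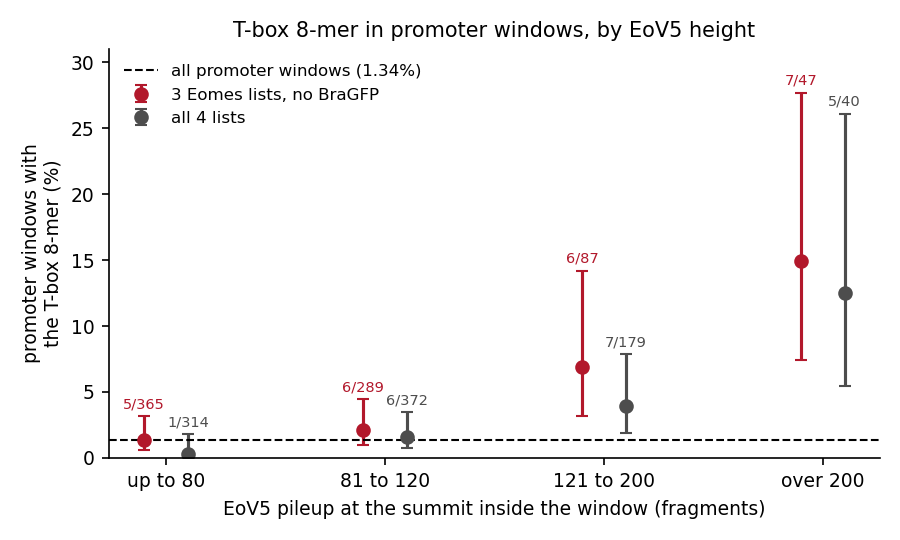
Share of promoter windows (vertical axis, percent) that hold the T-box 8-mer, for windows holding the EoV5 summit of a 3-list site (red) or of a 4-list site (grey), by the EoV5 pileup in fragments (horizontal axis). Bars are 95% Wilson intervals, the numbers above them are windows with the 8-mer over windows in the group, and the dashed line is the 1.34% of all windows; the share was highest above 200 fragments in both, at 14.9% and 12.5%.

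Where the 8-mer was present, it lay close to the summit. The nearest 8-mer was a median of 20.5 bp from the EoV5 summit in the 24 windows (interquartile range 9.50 to 34.5), and 19 of 24 were within 50 bp (79.2%). The looser form AGGTGNGA, in 82 windows, had a median of 22.5 bp (10.5 to 72). Motifs of other factors, each over its own subset of the 788 windows, had larger median distances: the SP/KLF box 83.5 bp (42.0 to 132, 388 windows), the E-box CAGCTG 66.5 bp (26.5 to 132, 142 windows) and the GATA motif AGATAA 54.5 bp (22.0 to 99.0, 59 windows). In 4-list windows the 8-mer had a median distance of 22.5 bp (14.5 to 73.5, 19 windows).

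The windows touched by a site, wherever its summit lay, were compared in the same way. Of the 2521 windows overlapped by a 3-list site, 1.27% held the 8-mer (0.901 to 1.79), against 1.19% of the 2937 overlapped by a 4-list site (0.858 to 1.65) and 1.44% of the 21024 overlapped by no EoGFP peak (1.29 to 1.61). The difference between 3-list and 4-list windows was 0.0776 percentage points (-0.513 to 0.693), which also allows a difference of either sign. The core GGTGTG was in 18.9% of 3-list windows and 19.2% of 4-list windows. The looser form AGGTGNGA was in 6.47% of 3-list windows (5.57 to 7.49), 6.20% of 4-list windows (5.38 to 7.13) and 5.45% of windows with no EoGFP peak (5.15 to 5.77). Of 14 motifs searched, 3 differed between 3-list and 4-list windows with an interval that left out 0. They were the SOX motif ACAATGG (2.34% and 1.43%, a difference of 0.910 points, 0.190 to 1.67), the E-box (16.5% and 14.1%, 2.45 points, 0.531 to 4.37) and the palindrome GGCGCC (21.9% and 24.8%, -2.93 points, -5.16 to -0.671). These intervals are not adjusted for the 14 motifs. Over all 29164 windows the SOX motif was in 3.74%, the E-box in 16.6%, GGCGCC in 11.1%, the SP/KLF box in 24.1%, the GATA motif in 11.6%, the T-box core in 19.4% and AGGTGNGA in 5.45%. The core lies within the 8-mer, and each 8-mer also matches AGGTGNGA. The other motifs searched, each on both strands, were AATCCACA (FOXH1-type, 0.912% of all windows), GTCTAGAC (SMAD palindrome, 0.213%), ATGCAAAT (octamer, 1.77%), CTTTGAT (LEF/TCF, 3.79%), TGTTTAC (forkhead, 3.65%) and a homeodomain pair of TAAT and ATTA with 3 free bases between (0.494%). The ratio of observed to expected CpG had a median of 0.750 in 3-list windows (0.552 to 0.893), 0.804 in 4-list windows (0.646 to 0.933) and 0.248 in windows with no EoGFP peak (0.126 to 0.458).

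Some promoter windows of listed genes lay under 3-list sites. The 16 gene lists used below hold 230 entries, and 21 windows of 20 of their genes were overlapped by a 3-list site. Of these 21 windows, 0 held the 8-mer and 5 held the core, against 1.34% and 19.4% of all windows, so neither count is a result about these genes. Shown in full are Epcam, whose EoV5 summit lay 10 bp upstream of its start and whose core is in capitals, Kit, with its SP/KLF box in capitals, and Dkk1, which held neither. They were picked, after their values were seen, from the 6 windows with the EoV5 summit inside. The sequences are RefSeq windows of GRCm38.p6, 5′ to 3′ on the transcript's strand.
Epcam, chr17:87635729-87636028, plus strand: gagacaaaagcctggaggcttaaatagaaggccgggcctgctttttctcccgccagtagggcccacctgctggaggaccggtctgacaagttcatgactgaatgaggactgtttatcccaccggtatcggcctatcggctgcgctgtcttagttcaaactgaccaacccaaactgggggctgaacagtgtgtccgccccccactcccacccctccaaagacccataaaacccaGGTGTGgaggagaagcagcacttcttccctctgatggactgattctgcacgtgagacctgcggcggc
Kit, chr5:75574737-75575036, plus strand: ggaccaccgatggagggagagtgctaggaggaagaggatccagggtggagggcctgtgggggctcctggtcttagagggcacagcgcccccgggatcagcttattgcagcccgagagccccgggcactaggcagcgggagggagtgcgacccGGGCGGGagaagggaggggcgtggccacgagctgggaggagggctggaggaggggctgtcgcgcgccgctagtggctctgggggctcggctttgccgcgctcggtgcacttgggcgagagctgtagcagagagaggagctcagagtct
Dkk1, chr19:30549447-30549746, minus strand: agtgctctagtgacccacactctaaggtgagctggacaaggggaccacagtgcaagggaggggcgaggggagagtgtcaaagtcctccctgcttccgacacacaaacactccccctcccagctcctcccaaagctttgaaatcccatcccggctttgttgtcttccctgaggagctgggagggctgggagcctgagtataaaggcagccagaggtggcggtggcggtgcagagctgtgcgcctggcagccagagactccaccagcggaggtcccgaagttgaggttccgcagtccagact

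Epcam, an epithelial adhesion molecule of endoderm, had an EoV5 pileup of 189 fragments (163 to 218) and an EoVP16 pileup of 66 (51.0 to 84.0). Kit, a receptor tyrosine kinase found on early endoderm, had 138 (116 to 163) and 78 (61.7 to 97.3). Within 50 kb of it lay 0 BraGFP peaks, and within 100 kb lay 1. Dkk1, a secreted inhibitor of Wnt signalling, had 135 (113 to 160) and 71 (55.5 to 89.6). All 3 were below the 200 fragments above which the 8-mer was most frequent.

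The 3-list sites lay away from gene ends more often than 4-list sites did. No more than 1 kb from a coding gene's start or finish lay 23.8% of 3-list sites (23.0 to 24.6, 2604 of 10924) and 45.9% of 4-list sites (44.6 to 47.1, 2774 of 6049), a difference of -22.0 percentage points (-23.5 to -20.5). Elsewhere inside coding genes lay 38.3% of 3-list sites and 28.7% of 4-list sites, and outside coding genes 37.9% and 25.5%. Over all 30129 EoGFP peaks, which include both sets, the shares were 27.7% at gene ends, 37.5% inside and 34.8% outside. These were nearer to the shares of 3-list sites than to those of 4-list sites. The EoGFP peaks without BraGFP that lacked an EoVP16 peak but had an EoV5 peak were at gene ends in 3.75% of 6294 cases (3.31 to 4.25). Those that lacked an EoV5 peak but had an EoVP16 peak were there in 54.8% of 3301 cases (53.1 to 56.5). The 3-list sites thus stood between these groups, with a difference of 20.1 points from the set without EoVP16 (19.2 to 21.0) and of -31.0 points from the set without EoV5 (-32.8 to -29.1).

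**Figure D2:**
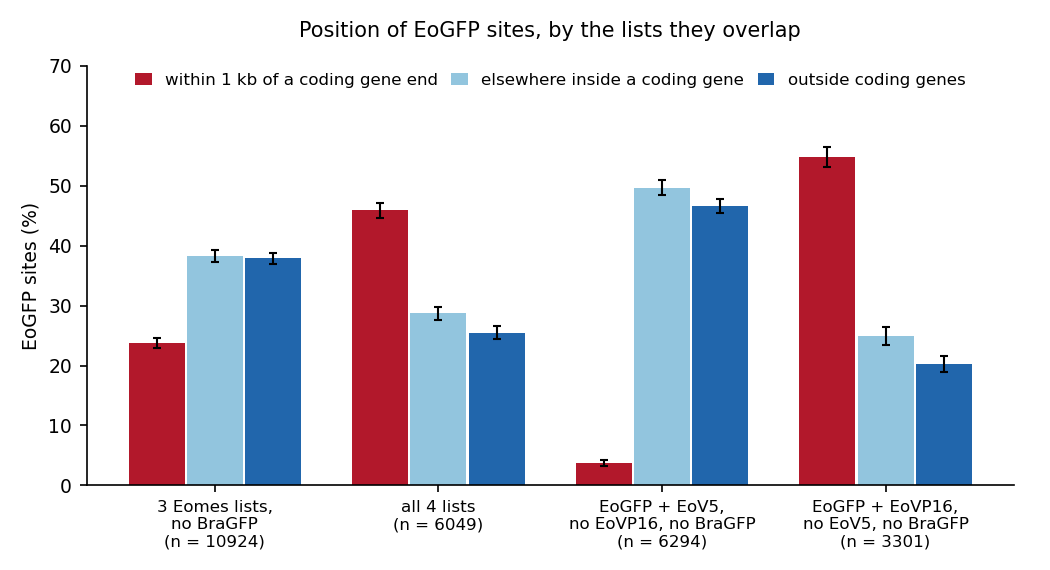
Position of EoGFP sites (vertical axis, percent of the sites in a set) relative to coding genes, for 3-list sites, 4-list sites and the 2 sets without BraGFP that lack EoVP16 or EoV5. Bars give the share within 1 kb of a gene end (red), elsewhere inside a gene (light blue) and outside genes (dark blue), with 95% Wilson intervals; 23.8% of 3-list sites were at gene ends, against 45.9% of 4-list sites.

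Gene ends here meant mostly starts. Of 2111 3-list sites at an end of a gene whose strand the promoter table gives, 1955 were at the start (92.6%, 91.4 to 93.7) and 156 at the finish, against 97.1% at the start for 4-list sites (96.3 to 97.7). Among the EoGFP peaks with EoV5 but without EoVP16 or BraGFP, 41.7% of 187 were at the start (34.9 to 48.9). The EoV5 summits of 3-list sites within 1 kb of a start lay at a median of 30.0 bp after it (from 194 bp before to 193 bp after, 2498 summits), with 46.0% upstream.

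The share at gene ends went down as EoV5 height went up. The 3-list sites were ranked by EoV5 pileup and divided into 4 groups of 2731 sites each. In the lowest group (61 to 84 fragments) 50.6% were at gene ends (48.8 to 52.5), and in the next groups 27.9%, 11.3% and 5.46% (4.66 to 6.37 in the tallest, from 224 to 3296 fragments). Ranked by EoVP16 pileup, the share was 11.6% in the lowest group, then 29.1%, 33.7% and 20.9%, so it was highest at middle heights. Sites at gene ends had a median EoV5 pileup of 82.0 fragments (interquartile range 70 to 109), against 145 inside genes (94.0 to 244) and 165 outside (103 to 273). Their median EoVP16 pileup was 66.0 (56.0 to 80), against 60.0 inside genes (47.0 to 81) and 63.0 outside (47.0 to 86.0). EoGFP peaks were also wider at gene ends, with a median of 1194 bp against 856 bp inside genes and 787 bp outside. The part of width in these heights was not tested. With both pileups at least 2 times their list minimum, there were 2618 sites and 12.6% of them were at gene ends, a difference of -19.1 points from 4-list sites held to the same minimums (-21.5 to -16.8).

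**Figure D3:**
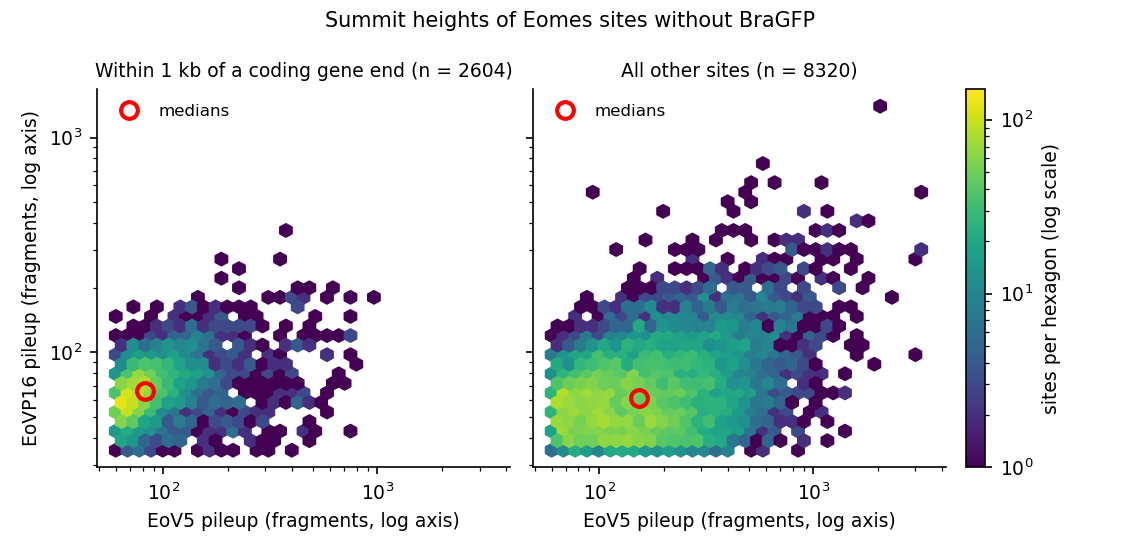
EoV5 pileup (horizontal axis, fragments, log scale) and EoVP16 pileup (vertical axis, fragments, log scale) of 3-list sites within 1 kb of a coding gene end (left, 2604 sites) and of all other 3-list sites (right, 8320 sites). Colour gives sites per hexagon on a log scale and the red ring marks the medians; EoV5 heights reached farther to the right away from gene ends, and EoVP16 medians lay close together.

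Over all 3-list sites the EoV5 pileup had a median of 128 fragments (interquartile range 84.0 to 224, from 61 to 3296) and the EoVP16 pileup a median of 63.0 (49.0 to 82.0, from 36 to 1379). The 4-list sites had medians of 112 for EoV5 (82.0 to 186) and 83.0 for EoVP16 (66.0 to 109). EoVP16 over EoV5 pileup had a median of 0.503 in 3-list sites and 0.765 in 4-list sites. These ratios depend on the unknown depth of each library, so only their order across sites can be read. Within 3-list sites the heights were weakly related, with Spearman's rho of 0.21 over sites, 0.37 at gene ends and 0.27 elsewhere. The summits of the EoV5 and EoVP16 peaks lay a median of 26 bp apart (11 to 62.0), and 70.1% were within 50 bp, against 63.8% of 4-list sites (difference 6.28 points, 4.79 to 7.76). At gene ends the median distance was 55.0 bp in 3-list sites and 49.0 bp in 4-list sites. Inside genes it was 24.0 and 26 bp, and outside genes 21.0 and 19.0 bp. It was thus smaller in 3-list sites only inside genes. The share within 50 bp was not computed by location, and the part of location in its difference was not tested.

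The sites took a growing share of the taller EoV5 peaks. The lists ranked here are those that chose the sites, so these shares are given as a description only. With each list ranked by pileup and divided into 10 groups of equal size, 17.7% of peaks in the lowest EoV5 group overlapped a 3-list site (16.5 to 18.9) and 51.9% in the tallest (50.3 to 53.5), while 4-list sites took 8.64% and 24.1%. In the EoVP16 list the share was 12.9% in the lowest group, 43.2% in group 8 from the bottom and 39.2% in the tallest, where 4-list sites took 49.6%. At the edge of the rule, 679 sites (6.22%) had an EoV5 pileup from 61 to 65 and 572 (5.24%) an EoVP16 pileup from 36 to 38. The nearest BraGFP peak to any 3-list site was 5 bp away, and 23 sites had one within 100 bp, with median pileups of 110 for EoV5 and 76.0 for EoVP16. Just outside, 9 of the 4-list sites overlapped their BraGFP peak by up to 100 bp and had medians of 119 and 67.0.

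The distance from 3-list sites to called Brachyury peaks varied widely. The nearest BraGFP peak was a median of 21.3 kb away (interquartile range 7.82 to 48.8), and 4.66% of sites had one within 1 kb, 29.9% within 10 kb and 75.6% within 50 kb. No BraGFP peak lay within 100 kb of 10.3% of the sites, and none within 100 kb of 14.7% of coding genes, so the long distances are given as a description. The 1123 sites with none within 100 kb had a median EoV5 pileup of 167 fragments, an EoVP16 pileup of 63.0, a width of 754 bp and 14.6% at gene ends. The 509 sites within 1 kb had medians of 114 and 68.0 fragments, a width of 965 bp and 31.8% at gene ends. Some of these heights belong to summits outside the site. A site near Rev1, for example, ended at position 38129243 of chromosome 1, and its EoV5 summit was at 38130076. How many such sites there were was not counted. Chromosomes held between 30.9% (chromosome 18) and 48.9% (chromosome X) of their EoGFP peaks as 3-list sites.

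The tallest sites by the lower of their ranks in EoV5 and EoVP16 lay inside genes or between them. Zswim6, a zinc finger gene, held a site at chr13:107857866-107860484 with an EoV5 pileup of 3237 fragments (3126 to 3350) and an EoVP16 pileup of 548 (503 to 596). Trio held one with 2137 (2047 to 2230) and 1379 (1307 to 1454), the highest EoVP16 pileup of all 3-list sites. Ntn1, the secreted guidance cue netrin, held a pair with 1631 and 1761 for EoV5 and 403 and 398 for EoVP16. A site 4.71 kb from Fam110c had the highest EoV5 pileup, 3296 (3184 to 3410), with 314 (280 to 351) for EoVP16. Others among the 10 tallest lay near Socs2, an inhibitor of cytokine signalling (21.9 kb away, 1281 and 360), in Klf7, a Krüppel-like factor (1193 and 459, with a BraGFP peak 0.178 kb away), near Rrs1, a ribosome assembly factor (14.7 kb, 1366 and 316), and 440 kb from Zfp804b (1542 and 412). In all 10 the EoV5 and EoVP16 summits were within 20 bp of each other, and 0 of 10 were at a gene end. The remaining one lay near Cyp26a1 and is described with the posterior mesoderm genes.

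The ratio of EoVP16 to EoV5 pileup varied widely, from 0.0301 to 6.05 over 3-list sites, and is read here only as an order across sites. Relative to EoV5, EoVP16 was highest at a site 49.5 kb from Abcg2, a membrane transporter, with an EoVP16 pileup of 575 fragments (529 to 624) and an EoV5 pileup of 95 (76.9 to 116). There the summits were 1038 bp apart and the EoGFP peak 585 bp wide, so at least 1 of the pileups belongs to a place outside that peak. A site in Taok3, a kinase, had 445 for EoVP16 and 204 for EoV5 (238 bp apart), and one in Arl15, a small GTPase, had 307 and 113 (21 bp apart). A site at a gene end of Myo5c, a myosin, had 156 and 72 (13 bp apart). At the other end, a site in Lrrn4 had 44 for EoVP16 (32 to 59.1) and 1463 for EoV5 (1389 to 1540), with summits 32 bp apart. A site 1.42 kb from Ndc1, a nuclear pore protein, had 99 and 2844, and one in Colq, the collagen tail of acetylcholinesterase, had 48 and 1170. A site in Arhgap26, a GTPase-activating protein, had 38 and 1100, and one 42.6 kb from Dip2c had 38 and 898.

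Coding genes near 3-list sites gave the background for the gene lists. Of 21887 coding genes, 32.6% had a 3-list site within 10 kb of the gene (32 to 33.2) and 55.3% within 50 kb, and 26.8% had a 4-list site within 10 kb. The lists are of different gene lengths and share some genes, and they were chosen with earlier results known, so their counts are given beside this background without a test. A count near the background is no result about the list.

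Genes of the primitive streak carried 3-list sites within 10 kb in 11 of 16 cases and within 50 kb in 14 of 16. Mixl1, a homeobox gene of the streak, had 3 within 50 kb and 0 BraGFP peaks: one over a gene end with an EoV5 pileup of 273 fragments (242 to 307) and an EoVP16 pileup of 72 (56.3 to 90.7), one 17.3 kb away with 178 and 101, and one 29.0 kb away with 86 and 95. Gsc, the homeobox gene goosecoid of the anterior streak, had 3 and 0 BraGFP peaks, at 13.1 kb upstream (258 and 80), 29.0 kb upstream (482 and 72) and 46.2 kb downstream of its start (89 and 46). The gene for Eomes itself had 3, of which 2 shared an EoV5 peak of 347 fragments (311 to 386) just beyond the gene's finish, among 4 BraGFP peaks. T had 2 low ones, with EoV5 pileups of 82 and 69 and 5 BraGFP peaks within 50 kb. Wnt3a, a Wnt ligand of the streak, had 4 with EoV5 pileups from 61 to 100. Fgf8, an FGF ligand of the streak, had 0 and 6 BraGFP peaks, and Tdgf1, the Nodal co-receptor, had 0 of either. Within 100 kb, Mixl1 had 4 BraGFP peaks, Gsc had 1 and Tdgf1 had 0.

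**Figure D4:**
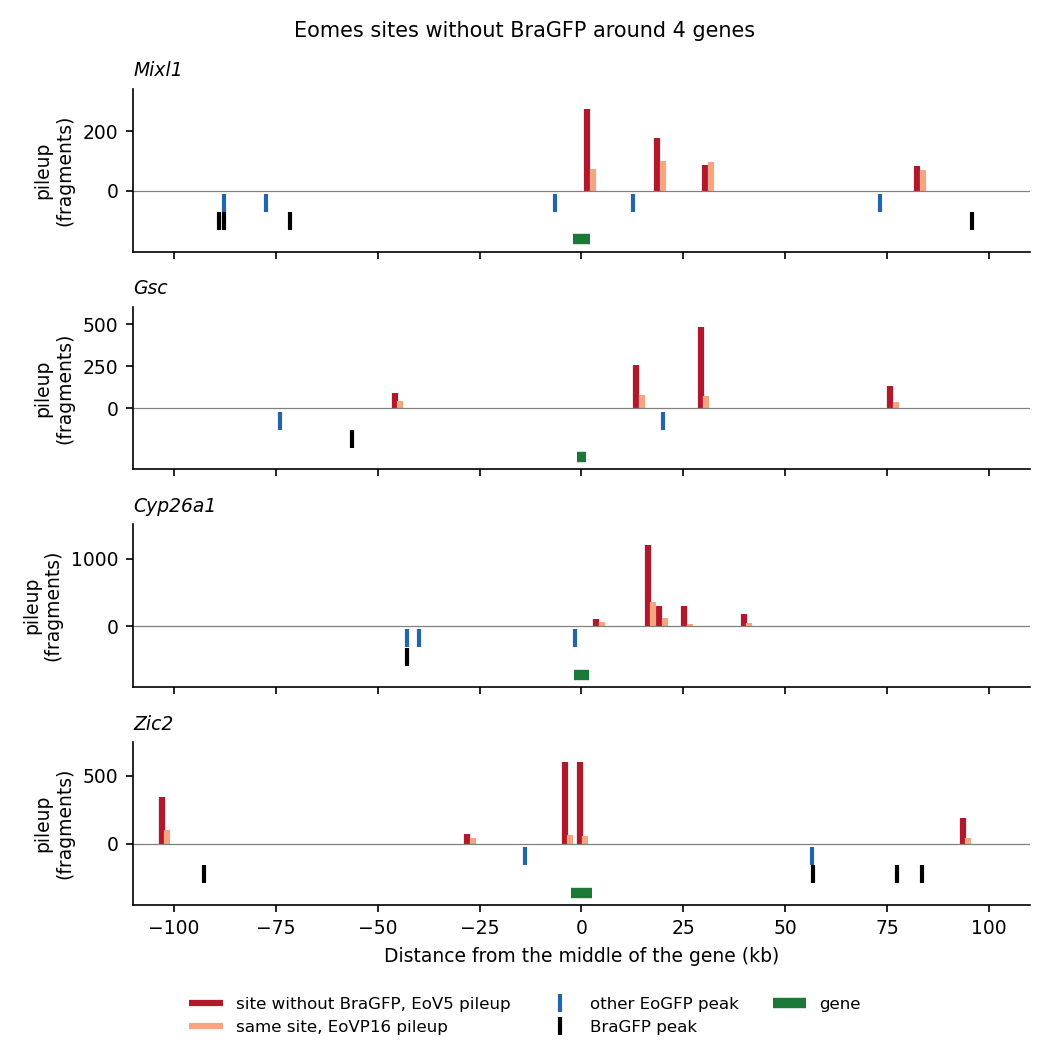
The 3-list sites around Mixl1, Gsc, Cyp26a1 and Zic2, by distance from the middle of the gene in kb along the chromosome (horizontal axis), with the EoV5 pileup (dark red) and EoVP16 pileup (light red) of each in fragments (vertical axis, different in each panel). Ticks mark other EoGFP peaks (blue) and BraGFP peaks (black) and the green bar is the gene. Mixl1, Gsc and Zic2 had 0 BraGFP peaks within 50 kb and Cyp26a1 had 1. Within 100 kb Mixl1 had 4, Gsc 1, Zic2 4 and Cyp26a1 1.

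Among definitive endoderm genes, 11 of 16 had a 3-list site within 10 kb and 14 of 16 within 50 kb. Foxa2, a forkhead protein needed in endoderm and node, had 4, none of them at a gene end, with EoV5 pileups of 213, 78, 81 and 362 fragments. Its relative Foxa1 had 4, the tallest 24.2 kb upstream of the start with 729 (677 to 784) for EoV5 and 215 (187 to 246) for EoVP16. Gata4, a zinc finger factor of endoderm and heart, had 3 with 131, 74 and 76 for EoV5. Sox17, the SRY-box factor of endoderm, and Cer1, an inhibitor of Nodal and BMP, had 1 each within 50 kb, and Hhex, a homeobox gene of anterior endoderm, had 0. Foxa3 and Kit had 2 each and 0 BraGFP peaks within 50 kb, but 5 and 1 BraGFP peaks within 100 kb. Like Sox17, Cer1 and Hhex, they were named after their values were seen.

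Cardiac and anterior mesoderm genes had a 3-list site within 10 kb in 12 of 16 cases, and no further gene was added by widening to 50 kb. Snai1, a zinc finger repressor of epithelial genes, had 5, of which 2 shared an EoV5 peak of 335 fragments (300 to 373) at and just upstream of its start. Smarcd3, a chromatin remodelling subunit of heart, had 3, the tallest inside the gene with 484 (442 to 529) and 79 (62.5 to 98.5). Pdgfra, a receptor of mesoderm, had one 7.06 kb upstream with 469 (428 to 513) and 121 (100 to 145), and 2 that shared an EoV5 peak of 86. Mesp1, a bHLH gene that marks cardiac progenitors, had 2 low ones (65 and 67 for EoV5) and 4 BraGFP peaks. Presomitic and posterior mesoderm genes had a site within 10 kb in 5 of 16 cases and within 50 kb in 10 of 16, close to the background of 32.6% and 55.3%. Msgn1, a bHLH gene of the presomitic mesoderm, had 0 and 6 BraGFP peaks. Cyp26a1, which breaks down retinoic acid, had 5 downstream of the gene and 1 BraGFP peak, and the site 18.9 kb after its start had 1212 fragments for EoV5 (1145 to 1282) and 361 for EoVP16 (325 to 400). Tbx6, a T-box gene of paraxial mesoderm, had 3, the tallest 4.75 kb upstream with 260 and 125. Hes7, a bHLH factor of the segmentation clock, had 3, of which 0 lay within 10 kb, with 117, 82 and 80 for EoV5 and 6 BraGFP peaks. Six2, a homeobox factor that maintains nephron progenitors, had 3 low ones (97, 66 and 78 for EoV5).

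Node and notochord genes had a site within 10 kb in 7 of 13 cases and within 50 kb in 12 of 13. Chrd, the BMP inhibitor chordin, had 5, of which 3 from 6.85 to 8.89 kb upstream shared an EoV5 peak of 464 fragments (423 to 508). Shh, a ligand of the notochord, was the 1 gene of this list with 0, and it also had 0 BraGFP peaks within 50 kb.

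Of the Nodal and activin genes, 9 of 16 had a site within 10 kb and 14 of 16 within 50 kb. Foxh1, the DNA-binding partner of Nodal-activated SMADs, had 6 and 1 BraGFP peak, with EoV5 pileups from 61 to 133 and EoVP16 pileups from 50 to 159. Acvr1b, an activin receptor, had 4, the tallest 8.72 kb beyond the gene with 957 (897 to 1020) and 121, 0.102 kb from a BraGFP peak. Pmepa1, a feedback inhibitor of the pathway, had 3, and the site at its gene end had 362 (326 to 401) for EoV5 and 372 (335 to 412) for EoVP16. Lefty1 and Lefty2, secreted Nodal inhibitors, had 3 each within 50 kb, of which 3 and 0 lay within 10 kb. Their BraGFP counts within 50 kb were also equal, and the sites may be the same ones.

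Wnt genes had a site within 10 kb in 11 of 16 cases and within 50 kb in 13 of 16. Lef1, a nuclear effector of the pathway, had 7, of which 6 had their midpoint inside the gene, with EoV5 pileups from 184 to 417, against 3 BraGFP peaks. The Lef1 site with 321 fragments was 2194 bp wide and had its EoV5 and EoVP16 summits 2793 bp apart. At least 1 of those summits therefore lay outside the site. Tcf7l2, another such effector, had 5, the tallest 40.8 kb upstream with 703 (652 to 757) and 168 (144 to 195). Wnt5b, a ligand of the non-canonical branch, had 4 among 10 BraGFP peaks, and inside it a site had an EoVP16 pileup of 607 and an EoV5 pileup of 542. FGF genes and their inhibitors had a site within 10 kb in 7 of 15 cases and within 50 kb in 9 of 15. Spry2 had 4, of which 3 around its start shared an EoV5 peak of 150, and Spry1 had 3 downstream with up to 343; both encode inhibitors of receptor tyrosine kinase signalling. Fgfr1, an FGF receptor, had 2 with 214 and 142 for EoV5. Dusp4, Dusp6, Spry4 and Etv5, also named after their values were seen, had 0 each and 4 or 5 BraGFP peaks within 50 kb.

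In the list for the epithelial-mesenchymal transition, 8 of 14 genes had a site within 10 kb and 9 of 14 within 50 kb. Cdh1, the adhesion protein E-cadherin, had 6 and 6 BraGFP peaks, with 111 fragments (91.3 to 134) for EoV5 at one gene end and 308 (275 to 344) inside the gene. Grhl2, a factor that keeps epithelial genes active, had 6 and 4 BraGFP peaks, with EoV5 pileups from 122 to 431. Of the mesenchymal genes besides Snai1, Zeb2 had 5, all within 10 kb, Cdh2 and Fn1 had 2 each, and Snai2, Zeb1, Twist1, Vim and Rhob had 0 each. Esrp1 and Epcam had 2 each within 50 kb, and Esrp2 had 1. Apart from Snai1, the genes in these 2 sentences were named after their values were seen.

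Pluripotency genes had a site within 10 kb in 7 of 16 cases and within 50 kb in 12 of 16, and primed epiblast genes in 6 of 12 and 8 of 12. Nanog, a homeobox factor of pluripotent cells, had 4, with 156, 142, 175 and 114 fragments for EoV5, the second 3.73 kb upstream with 170 for EoVP16. Sox2, an SRY-box factor of pluripotent and neural cells, had 3, none within 10 kb, with 128, 117 and 105. Sall2, a zinc finger factor, had 2 that shared an EoV5 peak of 76. Lin28a, an RNA-binding protein that blocks let-7 maturation, had 3, the tallest 28.7 kb upstream with 944 and 173. Neuroectoderm genes had a site within 10 kb in 8 of 16 cases and within 50 kb in 12 of 16. Of those 12, 4 had 0 BraGFP peaks within 50 kb, namely Sox1, Zic1, Zic2 and Zic5. The same share over all coding genes was not computed at 50 kb, so this count is no result about the list. Zic2 and Zic5 had equal counts of 3 sites and may share them. Zic2, a zinc finger factor of epiblast and neural plate, had 3, of which 2 at the gene shared an EoV5 peak of 599 fragments (552 to 649) with EoVP16 pileups of 67 and 59. Hesx1, a homeobox repressor of the anterior neural plate, had 5 and 1 BraGFP peak, the tallest inside the gene with 199 (172 to 229). Nes, the neural filament nestin, had 5, none within 10 kb and all low (61 to 94).

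Lists of cells that the embryoid bodies could also hold were not at the bottom. Blood and endothelial genes had a site within 10 kb in 5 of 12 cases and within 50 kb in 8 of 12. Runx1, a factor of blood formation, had 8 sites within 10 kb, the most of any listed gene, with EoV5 pileups from 82 to 539 and EoVP16 pileups from 40 to 80, and 2 BraGFP peaks within 50 kb. It is a long gene, from 92601466 to 92826074 on chromosome 16, and the part of length in its count was not tested. Fli1 had 3 (493, 220 and 329 for EoV5) and Pecam1 had 5, none within 10 kb. Trophoblast and visceral endoderm genes had a site within 10 kb in 8 of 12 cases. Gata3, a zinc finger factor of trophoblast, had 5 and 1 BraGFP peak, with EoV5 pileups from 62 to 305. The neighbouring keratin genes Krt8 and Krt18 had the same 5 within 50 kb, with up to 406. Whether any of these cell types was present cannot be read from peak lists.

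Genes of later tissues, listed as controls, had fewer members with a site at the short distance. Skeletal muscle genes had a 3-list site within 10 kb in 0 of 12 cases and within 50 kb in 5 of 12, including Ckm with 2, Myog and Myh1. Lens crystallin and liver genes had one within 10 kb in 2 of 12 cases and within 50 kb in 7 of 12, including Cryaa, Fgb and Serpina1a with 2 each. At 50 kb the lens and liver list stood near the background of 55.3%, and the muscle list below it.

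**Figure D5:**
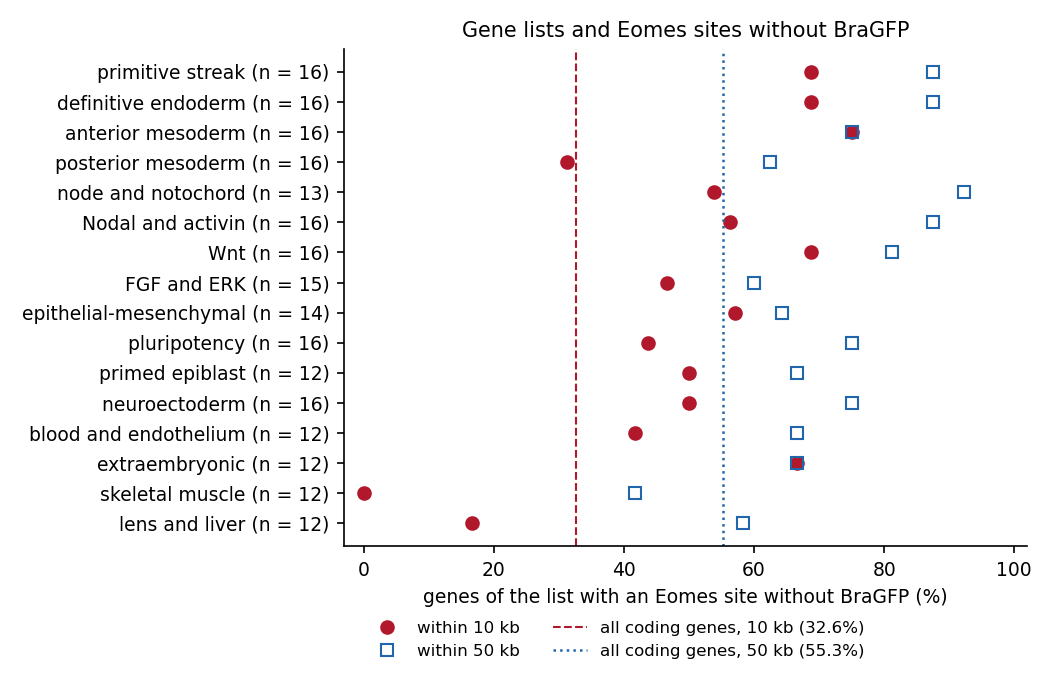
Share of the genes in each of 16 lists (horizontal axis, percent) with a 3-list site within 10 kb (filled circles) or 50 kb (open squares) of the gene, with the number of genes in brackets. The lines give the same share over all 21887 coding genes, 32.6% and 55.3%; anterior mesoderm had the highest share at 10 kb (12 of 16 genes) and skeletal muscle the lowest (0 of 12).

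Long genes collected the most sites. Auts2, 1106 kb long and known from nervous system development, had 12 3-list sites within 50 kb and 29 BraGFP peaks. Bcas3 and Cdkal1 had 11 each, with 15 and 11 BraGFP peaks, and Arhgap26 and Iqschfp had 10 each, with 18 and 10. These genes are from 473 to 1106 kb long, and the part of length in their counts was not tested.

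A small set of genes had 3-list sites and no Brachyury peak over a wide stretch. Of all coding genes, 14.7% (3216 genes) had no BraGFP peak within 100 kb, and 2.54% (556 genes) had none and also a 3-list site within 50 kb. A 3-list site within 50 kb was thus less frequent among those 3216 genes than among all coding genes (55.3%). Cobll1 had 6, all with their midpoint within the gene, on 4 EoV5 peaks from 80 to 327 fragments. Arhgef4, a guanine exchange factor, had 5 within the gene, the tallest 595 (548 to 645) for EoV5 and 53 (39.7 to 69.3) for EoVP16. Itm2b, a membrane protein processed in the secretory pathway, had 4 with EoV5 pileups of 663, 63, 250 and 547. The other 7 of the first 10 genes by this count, among them Krtap10-4 with 6 and Krtap10-10 with 5, sit in 1 tandem array of keratin-associated protein genes on chromosome 10 and share their sites, whose EoV5 pileups ran from 61 to 283.

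Sites gathered in places. Joining 3-list sites with gaps of up to 12.5 kb gave 8276 single sites, 973 pairs, 188 groups of 3, 27 of 4 and 6 of 5. The groups of 5 lay at or near Car2, a carbonic anhydrase (EoV5 from 178 to 602, 0 BraGFP peaks between the sites), Psmd14, a proteasome subunit (252 to 579, 0 BraGFP peaks, on 3 EoV5 peaks), Lrig3 (154 to 1072, 3 BraGFP peaks), Tec, a tyrosine kinase (75 to 311), Cdc42ep1 (66 to 338) and Ndst1 (80 to 303), the last 3 with 1 BraGFP peak each.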

How the data were processed

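The 4 deposited ChIP-seq peak lists of EoGFP, BraGFP, EoV5 and EoVP16 were used. The tools named for build mm10/GRCm38 in the submitters' processing notes include MACS2 2.1.1.20160309.4, bedtools 2.27.0 and Bowtie2 2.3.4; order, settings, the control and how 2 libraries became 1 list are not given in the sources used here. The deposited EoGFP and BraGFP lists hold positions only. The deposited EoV5 and EoVP16 lists follow the MACS2 column order: signal is the authors' pileup at the summit in fragments, in whole numbers with no sign of scaling, and the deposited fold ratio and the authors' −log10 p and −log10 q were not used in any comparison. The pileup minimums are those in the names of the deposited lists.

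Peaks on unplaced contigs (4, 7, 7 and 6 in EoGFP, BraGFP, EoV5 and EoVP16) and repeated entries (12, 4, 46 and 26) were dropped, leaving 30129, 27588, 38193 and 36203. Overlap was at least 1 bp, and a site's pileup is that of its tallest overlapping peak. Coordinates are as the files give them. Positions were taken from a GRCm38.p6 RefSeq gene table (21887 coding genes, distance from the site's midpoint to the gene) and, for strand and sequence, RefSeq promoter windows of 300 bases, of which 29164 that do not overlap each other were searched; they cover 17492 of the coding genes. No genome was used, so the motif comparison planned on site sequence was made on promoter windows. Scripts used Python 3.11.15, numpy 2.4.6, pandas 2.3.3 and scipy 1.17.1 and were tested on simulated lists.

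The sites, the gene lists and the motifs were chosen with earlier results of these data known. The text names the 7 factors put back into the dKO cells (Mesp1, Msgn1, Mixl1, Foxa2, Six2, Eomes and T), the 3 genes of each list with the most sites within 50 kb, the genes nearest the 10 sites with the best lower rank of the 2 pileups and nearest the 5 highest and 5 lowest pileup ratios, the 5 genes with the most sites, and the 10 with the most sites among those without a BraGFP peak within 100 kb. One item under this rule is not reported here. Other genes were chosen after their values were seen. Alternatives covered the overlap rule, taller and wider peaks, distance to BraGFP, autosomes, windows and motif forms.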

Additional observations from a re-analysis of the deposited data

How the results depend on the processing

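The difference of -22.0 points in the share at gene ends, 3-list minus 4-list sites, lay between -22.4 and -19.1 under all 7 alternatives tried for it. Other values moved. Requiring at least 50% of the EoGFP peak to be covered gave medians of 125 (EoV5) and 64.0 (EoVP16), 24.8% at gene ends and 31.6% of coding genes within 10 kb. With pileups of at least 2 times the minimum there were 2618 sites, with medians of 244 and 99.0, 12.6% at gene ends, 8.22% of genes and the 8-mer in 3.57% of overlapped windows. The wider 50% of EoGFP peaks held 5619 sites, with 124, 66.0, 34.4% and 22.8%. Leaving out sites with a BraGFP peak within 1 kb gave 31.2% of genes. The share of genes was 24.0% at 1 kb and 55.3% at 50 kb, and 37.1% of sites were within 5 kb of a gene end. The 8-mer share was 6.47% with 1 free base, 18.9% for the core and 3.05% in windows with the EoV5 summit, an alternative chosen after seeing the data. The cause of these shifts was not tested, apart from fewer sites under the stricter rules. No paired analysis was possible because each construct has 1 list, although EoGFP and BraGFP share replicate numbers. Leaving out a replicate could not be done for the same reason, and windows of 100 bases around summits were not run because no genome was used. Unknown depth and different pileup minimums limit every statement on a missing peak.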
